A study of Arabidopsis thaliana with 3 samples.

Results

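The genes described here are 10 genes of late pollen and of the pollen tube wall in Arabidopsis thaliana, taken from the deposited tables by their locus identifiers. They are the pectin methylesterase genes VGD1 (AT2G47040) and PPME1 (AT1G69940), the arabinogalactan protein genes AGP6 (AT5G14380), AGP11 (AT3G01700), AGP23 (AT3G57690) and AGP40 (AT3G20865), the signalling peptide genes RALF4 (AT1G28270) and RALF19 (AT2G33775), and the receptor kinase genes ANX1 (AT3G04690) and ANX2 (AT5G28680). All 10 were listed in every library, among 26810 genes with a value in any library. The source was the immature inflorescence of untreated dcl1-7 plants, with polyA RNA sequenced as RNA-seq (2 libraries) or as GMUCT (1 library). The dcl1-7 plants carry a mutant allele of DCL1, the Dicer-like enzyme that releases microRNAs from their precursors, and no unmutated plants were analysed here, so nothing below measures an effect of the mutation. Buds were collected at about 4 weeks under a day of 16 h light and 8 h dark, and reads were 50 nt long and strand-specific. GMUCT reads start where a polyA RNA has lost its cap, through decapping or cutting. The question of each comparison is how the uncapped 5′ ends of a gene stand to its polyA RNA.

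The pollen tube is a single cell that grows at its tip through the pistil, and its wall must yield at the tip without bursting. Pectin is delivered to the tip in a methylated, soft form, and pectin methylesterases such as VGD1 and PPME1 remove the methyl groups, which lets calcium stiffen the wall. Arabinogalactan proteins are small secreted proteins, heavily glycosylated and often anchored to the membrane, and AGP6 and AGP11 are needed for normal pollen. RALF4 and RALF19 are secreted peptides that bind the receptor kinases ANX1 and ANX2 with their partners BUPS1 and BUPS2 and keep the tube intact until it reaches the ovule. These roles are background and were not measured here.

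The coding sequences of the arabinogalactan proteins and the RALF peptides are shown because the results turn on differences within these families. They were read from the RefSeq annotation of TAIR10.1, in which all 10 locus identifiers were found. In the arabinogalactan protein sequences capitals mark codons with C at the second base, which encode serine, proline, threonine or alanine, the residues these proteins are rich in. AGP23 and AGP40 are shown whole, AGP6 and AGP11 from base 1 to base 300 of 453 and 411.
AGP23: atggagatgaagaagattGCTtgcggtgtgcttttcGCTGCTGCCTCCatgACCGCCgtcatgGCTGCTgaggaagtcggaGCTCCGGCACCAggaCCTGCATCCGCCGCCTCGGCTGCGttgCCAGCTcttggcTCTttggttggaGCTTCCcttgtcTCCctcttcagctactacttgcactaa
AGP40: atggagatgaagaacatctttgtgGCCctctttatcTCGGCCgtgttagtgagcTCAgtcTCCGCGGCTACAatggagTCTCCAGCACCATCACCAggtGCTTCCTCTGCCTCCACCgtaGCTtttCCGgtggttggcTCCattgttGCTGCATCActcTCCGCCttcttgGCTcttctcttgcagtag
AGP6: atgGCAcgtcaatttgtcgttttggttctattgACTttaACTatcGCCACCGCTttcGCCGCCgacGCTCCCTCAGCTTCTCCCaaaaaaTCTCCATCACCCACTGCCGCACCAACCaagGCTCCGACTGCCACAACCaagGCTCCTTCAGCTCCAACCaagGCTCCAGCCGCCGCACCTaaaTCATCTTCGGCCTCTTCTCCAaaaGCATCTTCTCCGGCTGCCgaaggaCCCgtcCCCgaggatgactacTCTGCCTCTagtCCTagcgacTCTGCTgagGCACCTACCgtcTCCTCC
AGP11: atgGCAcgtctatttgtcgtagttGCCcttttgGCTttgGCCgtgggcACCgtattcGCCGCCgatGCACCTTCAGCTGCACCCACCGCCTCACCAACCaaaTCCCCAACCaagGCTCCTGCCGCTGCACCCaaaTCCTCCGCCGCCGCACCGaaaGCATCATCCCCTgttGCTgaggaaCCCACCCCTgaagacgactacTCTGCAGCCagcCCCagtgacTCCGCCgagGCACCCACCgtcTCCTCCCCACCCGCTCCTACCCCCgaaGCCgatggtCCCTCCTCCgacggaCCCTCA
Such codons made up 44.3% of the 61 codons of AGP23 and 46.8% of the 62 codons of AGP40. They made up 61.3% of the 150 codons of AGP6 and 59.6% of the 136 codons of AGP11. The median over 20044 tested genes was 22.7%, and the other 6 pollen genes lay between 17.3% for RALF4 and 25.8% for PPME1. The RALF sequences are shown from base 34 to the stop codon at base 333, with in-frame cysteine codons in capitals, of which there are 6 in each. RALF peptides are known for cysteines that form disulfide bridges in the mature peptide. The 6 marked codons need not all belong to it, and which of them do was not determined here.
RALF4: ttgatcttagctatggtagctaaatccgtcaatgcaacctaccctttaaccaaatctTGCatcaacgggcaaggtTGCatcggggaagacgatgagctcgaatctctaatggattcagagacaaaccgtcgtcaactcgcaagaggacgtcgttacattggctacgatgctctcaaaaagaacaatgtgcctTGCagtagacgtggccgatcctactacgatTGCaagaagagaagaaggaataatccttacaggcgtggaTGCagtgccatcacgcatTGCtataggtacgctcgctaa
RALF19: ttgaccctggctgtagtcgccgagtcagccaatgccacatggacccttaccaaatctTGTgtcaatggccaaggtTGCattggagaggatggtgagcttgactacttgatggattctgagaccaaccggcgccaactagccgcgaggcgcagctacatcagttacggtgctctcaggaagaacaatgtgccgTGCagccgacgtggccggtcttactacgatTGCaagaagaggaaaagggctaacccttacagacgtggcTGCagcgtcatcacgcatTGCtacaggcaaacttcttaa
Over the alignment of their coding sequences RALF4 and RALF19 were 75.4% identical, AGP6 and AGP11 66.9%, AGP23 and AGP40 58.7%, and ANX1 and ANX2 80.3%.

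Depth was not given and was estimated from the steps between low RPKM values, which are read numbers scaled to gene length and library total. The estimates were 18000000 reads in RNA-seq library 1, 8600000 in library 2 and 19000000 in GMUCT. They are approximate, since 32.8% to 35.9% of low values came within 0.1 of a whole read and chance alone would give 20%. They put the pollen genes at between 69 and 9519 reads in a library, with the fewest for ANX2 in RNA-seq library 2. All 5 floral organ markers (AP1, AP3, PI, AG and SEP3) lay between 7.54 RPKM (AG, GMUCT) and 166.4 RPKM (AP3, GMUCT), and of 5 tapetum markers 4 had at least 1 RPKM in every library. The summed level of the tapetum markers was 382.1 and 402.0 RPKM in RNA-seq against 212.6 RPKM in GMUCT. The 4 sperm lineage markers (DUO1, HAP2, GEX2 and HTR10) summed to 3.66 and 3.72 RPKM in RNA-seq against 2.51 RPKM in GMUCT. Of 3 pollen tube transcription factor genes, MYB101 had 11.0 and 10.2 RPKM in RNA-seq, while MYB97 and MYB120 were at most 0.27 RPKM there and at most 0.76 RPKM in GMUCT. Of the root hair genes RHD6 was missing from both RNA-seq tables and COBL9 had 1.74 and 1.15 RPKM, and of the seed genes OLEO1 was missing from both and CRA1 had 0.24 and 0.17 RPKM. In GMUCT RHD6 had 0.56 RPKM, COBL9 1.30 RPKM, OLEO1 0.72 RPKM and CRA1 0.82 RPKM. The part of these cell types in the values below was not tested. DCL1 itself was at 16.0 and 15.2 RPKM in RNA-seq against 7.57 RPKM in GMUCT, which does not check the genotype with no unmutated library beside it. In whole buds, fewer pollen cells and less RNA per pollen cell cannot be told apart.

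In polyA RNA these genes spanned more than 2 orders of magnitude. AGP23 was the most abundant, at 369.1 and 327.9 RPKM in RNA-seq libraries 1 and 2, followed by VGD1 at 234.2 and 259.5 RPKM and PPME1 at 209.3 and 218.9 RPKM. PPME1, the lowest of the 3, exceeded 98.6% of the 20214 genes tested. AGP40 had 95.8 and 90.3 RPKM, AGP6 65.7 and 53.1 RPKM, AGP11 42.9 and 37.7 RPKM, and RALF4 36.5 and 41.0 RPKM. RALF19 had 23.2 and 28.9 RPKM, ANX1 6.15 and 5.89 RPKM, and ANX2 2.92 and 2.54 RPKM. AGP11 and RALF4 overlapped between libraries and were not set apart by level, whereas every other pair of neighbours in this order kept its order in both libraries. The 2 RNA-seq libraries differed by a median of 0.17 on the log2 scale over the 10 genes, and by 0.31 at most (RALF19), against a median of 0.11 over all genes tested. Of the 10 genes 4 were higher in library 2 and 6 lower.

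The order in GMUCT was another one. AGP6 came first at 78.8 RPKM, PPME1 had 62.1 RPKM, AGP11 50.7 RPKM, VGD1 37.7 RPKM and AGP40 24.4 RPKM. AGP23, first in RNA-seq, was sixth with 10.8 RPKM, followed by RALF19 with 4.70 RPKM, RALF4 with 3.70 RPKM, ANX1 with 1.97 RPKM and ANX2 with 1.30 RPKM. There is 1 GMUCT library, so these values have no replicate error and the order has no spread to be read against.

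**Figure D1:**
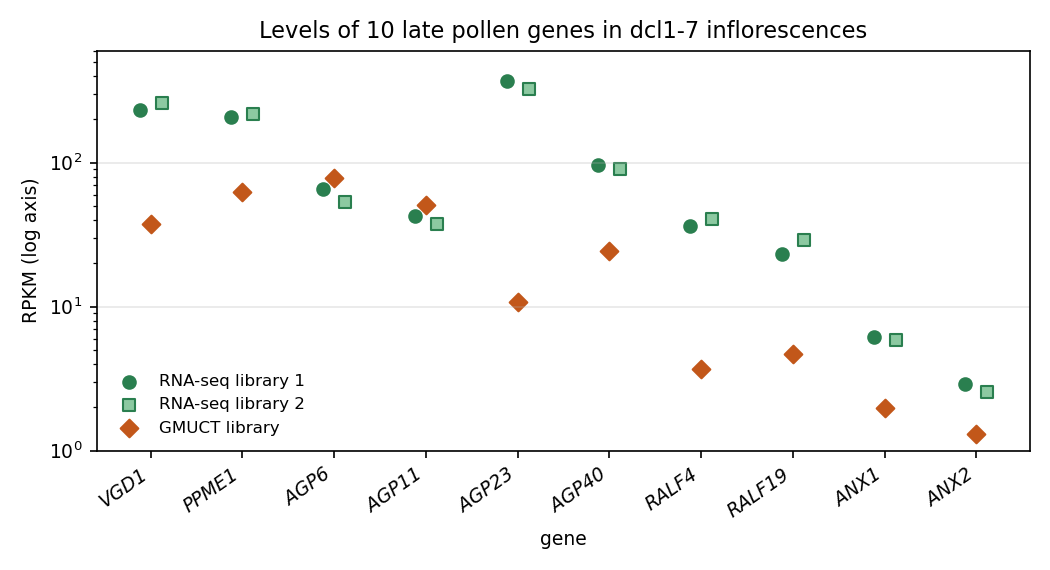
RPKM (log axis) of each of the 10 genes, with both RNA-seq libraries and the GMUCT library as separate points. The GMUCT point lies below both RNA-seq points for 8 genes and above both for AGP6 and AGP11, and the widest gap is that of AGP23.

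Of the 10 genes 8 were lower in GMUCT than in RNA-seq and none was higher, and AGP6 and AGP11 did not pass the test. Among all genes tested 69.0% were called, 36.9% lower and 32.1% higher (limma on log2(RPKM + 0.5), two-sided, Benjamini-Hochberg adjusted p below 0.05 over 20214 genes). The median log2 ratio of GMUCT to RNA-seq was -1.84 over the 10 genes and -0.07 over all genes tested. By size alone, 7 of the 10 genes were at least 2-fold lower in GMUCT than in both RNA-seq libraries on this scale, against a background of 17.3%, and 4 (AGP23, RALF4, VGD1 and RALF19) were at least 4-fold lower, against 1.95%. At 1.5-fold 8 were lower, against 30.0%. None was higher than both libraries by 1.5-fold, 2-fold or 4-fold, where the background was 28.0%, 19.9% and 8.71%. The 10 genes and the lists below were chosen with earlier results of these data known. Their counts beside the background are therefore a description and no test of the lists. The test has 1 residual degree of freedom and takes the lone GMUCT library to vary as the RNA-seq libraries do, and nothing in the labels says that the libraries came from separate plants, so its p-values reflect library spread that may be technical. Each assay was scaled to its own total by the authors, so a log2 ratio of 0 does not mean that as many RNAs were uncapped as capped, and ratios are read against the median of all genes.

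**Figure D2:**
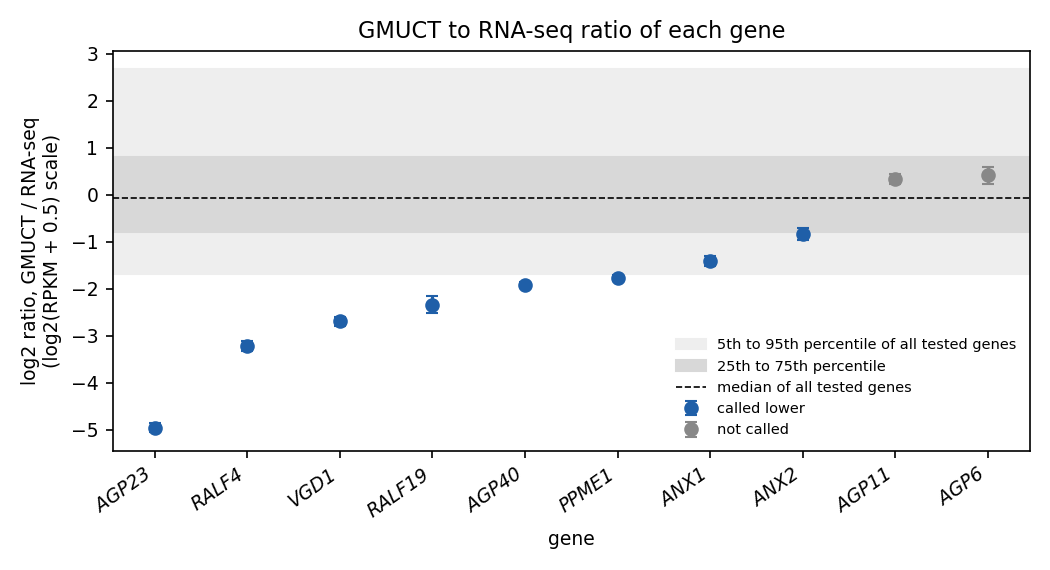
Log2 ratio of GMUCT to RNA-seq for each of the 10 genes with its standard error from limma, over grey bands that hold the middle of all 20214 tested genes. AGP23, RALF4, VGD1, RALF19, AGP40 and PPME1 lie below the 5th percentile of -1.68, and AGP11 and AGP6 lie inside the inner band.

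VGD1, the pectin methylesterase of pollen tube growth, had 246.9 ± 17.9 RPKM in RNA-seq (SD, n = 2) and 37.7 RPKM in GMUCT, 6.21-fold and 6.88-fold below libraries 1 and 2. Its log2 ratio was -2.69 (SE 0.09, adjusted p = 0.00462 by limma), which ranked 70 from the lowest of all tested genes. PPME1, another pollen methylesterase, whose loss gives tubes of irregular shape, had 214.1 ± 6.79 RPKM in RNA-seq against 62.1 RPKM in GMUCT, a log2 ratio of -1.78 (SE 0.06, adjusted p = 0.00458 by limma). Both genes were therefore lower in GMUCT by more than the gap between the RNA-seq libraries. Of PPME1, 62.0% of the exon length has a copy with at least 95% identity elsewhere in the genome, and the coding sequence was 96.6% identical to that of the methylesterase gene AT5G07410, so the counting may have shared or dropped reads of both. AT5G07410 had 268.2 and 269.3 RPKM in RNA-seq against 54.5 RPKM in GMUCT, and the sum of both genes gave a log2 ratio of -2.04, an alternative chosen after seeing the data. VGD1 had no copy at 95% identity, but 30.5% of its exon length matched at 90% or more, and its coding sequence was 89.8% identical to that of VGDH1. Summed with VGDH1, VGD1 had a log2 ratio of -2.37.

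The VGD1 relatives stood apart from VGD1 in GMUCT. VGDH2, with a coding sequence 71.0% identical to that of VGD1, had nearly the same polyA RNA level, 232.1 and 249.8 RPKM, but 98.0 RPKM in GMUCT. Its log2 ratio of -1.29 was 1.38 above that of VGD1 with RNA-seq library 1 and 1.42 above with library 2. VGDH1 had 60.3 and 65.7 RPKM in RNA-seq against 21.6 RPKM in GMUCT, a log2 ratio of -1.52. The difference between genes was not tested, because it rests on 1 GMUCT library. Together with these, the other pectin enzyme genes of pollen numbered 12, of which 8 were lower in GMUCT, 1 was higher and 3 did not pass, with a median log2 ratio of -1.02, where 36.9% of all tested genes were lower and 32.1% higher. PGA3, a pollen polygalacturonase gene, had the lowest ratio at 194.1 ± 21.8 and 38.1 RPKM (-2.33), next to AT5G07410 (-2.29). The methylesterase gene AT5G07420 was higher in GMUCT, with 16.1 ± 0.601 and 24.6 RPKM (0.60). The methylesterase inhibitor gene PMEI1 had 5.87 ± 1.29 and 6.28 RPKM, a log2 ratio of 0.10 that was not called.

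AGP23, which encodes a short arabinogalactan peptide, had 348.5 ± 29.1 RPKM in RNA-seq against 10.8 RPKM in GMUCT. It was 34.3-fold and 30.5-fold below RNA-seq libraries 1 and 2, and its log2 ratio of -4.95 (SE 0.10, adjusted p = 0.00359 by limma) was the second lowest of all 20214 tested genes. AGP40, of the same kind, had 93.1 ± 3.91 RPKM in RNA-seq against 24.4 RPKM in GMUCT, a log2 ratio of -1.91 (SE 0.06, adjusted p = 0.00458 by limma). The annotation gives both genes 1 exon on chromosome 3, transcripts of 460 nt and 459 nt and coding sequences of 186 nt and 189 nt. At these near-equal lengths the ratio of AGP23 was lower than that of AGP40 by 3.04. The difference was not tested, because it rests on 1 GMUCT library. The RNA-seq libraries differed by 0.17 and 0.09 for the 2 genes, which does not measure the spread of GMUCT. With the length trend removed the log2 ratios were lower, at -6.21 for AGP23 and -3.18 for AGP40. With the GC trend removed they were -5.02 for AGP23 and -2.58 for AGP40, closer to each other than in the main fit. The GMUCT value of AGP23 rests on an estimated 94 reads and that of AGP40 on 213.

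AGP6 and AGP11, the related genes of longer arabinogalactan proteins, lay on the other side. AGP6 had 65.7 and 53.1 RPKM in RNA-seq against 78.8 RPKM in GMUCT, above both libraries (log2 ratio 0.41, SE 0.17, adjusted p = 0.138 by limma). AGP11 had 42.9 and 37.7 RPKM in RNA-seq against 50.7 RPKM in GMUCT, likewise above both (0.33, SE 0.11, adjusted p = 0.0919 by limma). GMUCT was above both RNA-seq libraries for 45.0% of tested genes, so this direction was a common one. With each library centred on the median of the genes tested, which moved all ratios up by about 0.13, both genes were called higher, at 0.54 and 0.46. With the trend of the ratio with length removed both were below 0, at -0.023 and -0.36, and not called. The ratios of the 2 genes differed from each other by 0.08, and by 0.02 and 0.14 with RNA-seq libraries 1 and 2.

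Of 18 other arabinogalactan protein genes of the plant 17 passed the filter on low values, and of these 11 were higher in GMUCT, 3 were lower and 3 did not pass, with a median log2 ratio of 0.85. Of all tested genes 32.1% were higher and 36.9% lower. With the length trend removed 7 of the 17 were higher and 5 lower, nearer to those shares. With a filter at 5 RPKM 8 were higher and 3 lower. Of those 8, AGP2 (2.51 and 3.76 RPKM in RNA-seq, 10.95 RPKM in GMUCT), AGP4 and AGP7 passed that filter only through GMUCT, which set their direction. AGP7 (0.95 and 0.46 RPKM in RNA-seq, 9.49 RPKM in GMUCT) and AGP22 (0 and 0.19 against 3.59 RPKM) passed the filter on low values only through GMUCT. Their direction was thus set by the filter. AGP7 counts among the longer genes below and AGP22 among the short ones. AGP10 had 16.4 and 11.2 RPKM in RNA-seq against 361.4 RPKM in GMUCT (log2 ratio 4.69), and AGP4 had 4.6 and 4.48 RPKM in RNA-seq against 97.6 RPKM in GMUCT (4.28). AGP12 and AGP21, which encode short peptides like AGP23, had the lowest ratios of that list, -1.40 at 49.5 ± 0.304 and 18.4 RPKM and -0.69 at 118.2 ± 2.85 and 73.0 RPKM. Split by coding length, a division made after the values were seen, 8 of the 9 genes of 384 nt to 837 nt were higher and none lower. Of the 8 tested short ones, of 177 nt to 225 nt, 3 were higher and 3 lower, near the background of 32.1% and 36.9%. AGP6 and AGP11, with 453 nt and 411 nt, belong to the longer kind by length, and AGP23 and AGP40 to the shorter.

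Transcript length went with the ratio over all genes, and several of the pollen genes lay at the low end for their length. Tested genes of over 300 nt and up to 500 nt had a median log2 ratio of 1.53, and those of over 3000 nt and up to 4000 nt a median of -0.64. Among 281 tested genes of the former length AGP23 had the lowest ratio, and AGP40 ranked 16 from the lowest. Among 4045 genes of over 1200 nt and up to 1600 nt RALF4 ranked 2 and PPME1 107, and among 3146 genes of over 2000 nt and up to 2500 nt VGD1 ranked 7. RALF19 ranked 30 of 3395 genes of over 800 nt and up to 1200 nt, while AGP6 ranked 1800 of the same genes and AGP11 578 of 1328 genes of over 500 nt and up to 800 nt. ANX1 and ANX2 ranked 200 and 572 of 1416 genes of over 3000 nt and up to 4000 nt. The lengths are those of the TAIR10.1 annotation and need not be those behind the RPKM values. With the length trend removed the median log2 ratio of the 10 genes was -2.27, and 7 of the 8 lower calls remained, without ANX2.

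**Figure D3:**
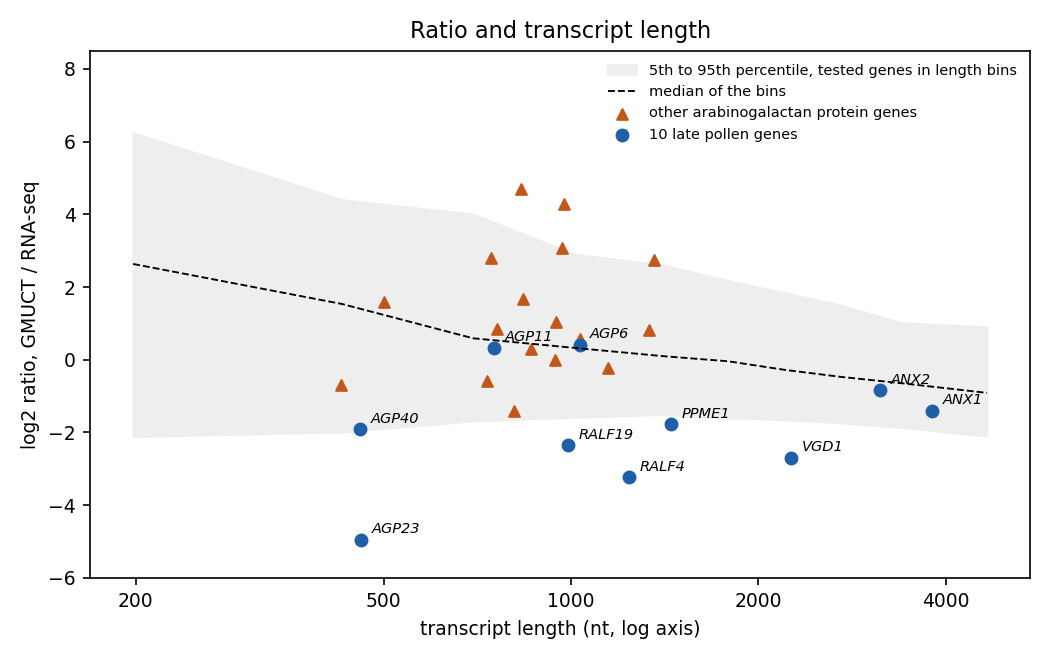
Log2 ratio of GMUCT to RNA-seq against transcript length (nt, log axis) for the 10 pollen genes and the other arabinogalactan protein genes, over the median and the 5th to 95th percentiles of all tested genes in 10 length bins. AGP23, RALF4, VGD1, RALF19 and PPME1 lie below the grey band, AGP40 lies at its lower edge, and AGP6 and AGP11 lie near the dashed median.

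Both RALF genes were lower in GMUCT. RALF4 had 36.5 and 41.0 RPKM in RNA-seq against 3.70 RPKM in GMUCT, 9.86-fold and 11.1-fold below the libraries, and its log2 ratio of -3.22 (SE 0.11, adjusted p = 0.00458 by limma) ranked 15 from the lowest of all tested genes. RALF19 had 23.2 and 28.9 RPKM in RNA-seq against 4.70 RPKM in GMUCT, 4.93-fold and 6.14-fold below (-2.34, SE 0.18, adjusted p = 0.00820 by limma). RALF4 thus had more polyA RNA than RALF19 in both RNA-seq libraries and a lower RPKM in the GMUCT library. The GMUCT values rest on an estimated 87 reads for RALF4 and 88 for RALF19, over annotated transcripts of 1239 nt and 991 nt. By read number the 2 genes were therefore not set apart in GMUCT. With the GC trend removed the log2 ratios were -4.07 for RALF4 and -2.90 for RALF19, and with the length trend removed -3.57 and -2.80. The ratio of RALF19 was above that of RALF4 by 0.95 with RNA-seq library 1 and by 0.81 with library 2, a difference that was not tested.

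The receptor kinase genes had low values and smaller gaps. ANX1 had 6.15 and 5.89 RPKM in RNA-seq against 1.97 RPKM in GMUCT (log2 ratio -1.40, SE 0.10, adjusted p = 0.00790 by limma). ANX2 had 2.92 and 2.54 RPKM in RNA-seq against 1.30 RPKM in GMUCT (-0.84, SE 0.13, adjusted p = 0.0223 by limma). Both GMUCT values lay below both RNA-seq values, as for 50.2% of tested genes. The GMUCT value of ANX2 equalled that of the root hair gene COBL9, 1.30 RPKM, so these ratios rest on low GMUCT values. ANX2 was not called when all genes were tested (adjusted p = 0.0562 by limma), and with the length trend removed its log2 ratio was -0.38 and was not called, while that of ANX1 was -0.79 and called. The pseudocount of 0.5 RPKM makes the ratios of these 2 genes smaller than the plain quotients of RPKM, which were 3.06 for ANX1 and 2.10 for ANX2, RNA-seq mean over GMUCT.

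Of 11 other genes of the RALF and ANX pathway in pollen 10 were tested, with 4 lower in GMUCT, 4 higher and 2 without a call, and with a median log2 ratio of -0.27. Both counts are near the background of 36.9% lower and 32.1% higher. The receptor kinase genes BUPS1 and BUPS2, partners of ANX1 and ANX2, were lower like these, with 17.3 ± 0.672 and 2.48 RPKM (-2.58) and 2.86 ± 0.325 and 0.840 RPKM (-1.32). The genes LLG2 and LLG3, whose membrane-anchored proteins act as co-receptors, were higher, with 7.04 ± 0.884 and 29.2 RPKM (1.99) and 2.28 ± 0.368 and 12.8 RPKM (2.26). With the length trend removed, or with a filter at 5 RPKM, 2 genes of the list were called lower. At 5 RPKM BUPS1 passed only through RNA-seq and LLG3 only through GMUCT, which set their direction there. BUPS2 and RBOHH, both called lower, passed the filter on low values only through RNA-seq, which set their direction. RBOHH had 1.67 and 1.55 RPKM in RNA-seq against 0.67 RPKM in GMUCT. Further RALF peptide genes and receptor genes of the ANX family, chosen for functions outside pollen, were 11 in number. Of 10 tested 3 were lower, 4 higher and 3 without a call, near the shares of all tested genes (36.9% and 32.1%), with a median of 0.11. RALF34 was highest, at 178.5 ± 4.99 and 592.5 RPKM (1.73), followed by the receptor kinase gene THE1 at 22.0 ± 1.78 and 44.3 RPKM (1.00). The receptor kinase gene HERK1 was lowest at 25.1 ± 0.651 and 3.51 RPKM (-2.67), next to RALF1 at 7.58 ± 1.03 and 3.97 RPKM (-0.85), which was not called when all genes were tested.

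Of 15 other genes of pollen tube growth 5 had a lower value in GMUCT, 4 a higher one and 6 no call, with a median log2 ratio of -0.14. These counts too are near the background of 36.9% and 32.1%. PRK6, called higher, had 0.76 and 0.89 RPKM in RNA-seq against 1.84 RPKM in GMUCT. It passed the filter on low values only through GMUCT, which set its direction. With a filter at 5 RPKM 1 gene of the list was called higher. That gene passed the filter at 5 RPKM only through GMUCT, which set its direction. The proton pump gene AHA8 had 34.2 ± 0.870 and 7.54 RPKM (-2.11), and the sugar transporter gene STP9 had 25.7 ± 0.240 and 6.84 RPKM (-1.84). STP11, a sugar transporter gene and 1 of the 4 higher in GMUCT, had 2.17 ± 0.262 and 4.59 RPKM (0.94), which was not called when all genes were tested.

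**Figure D4:**
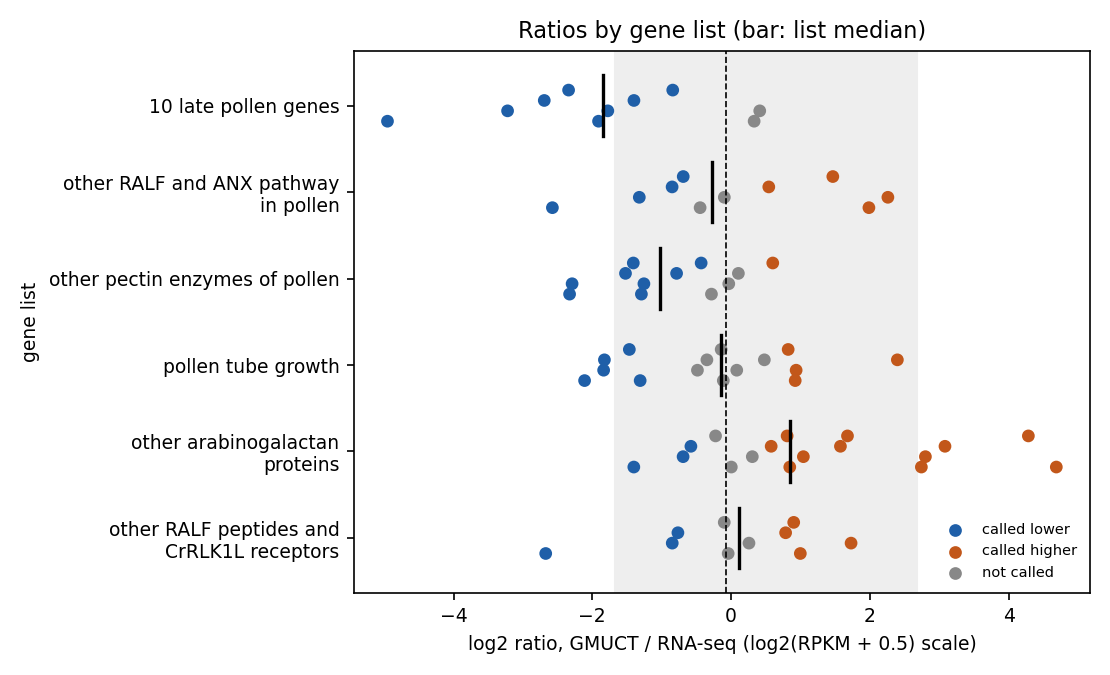
Log2 ratio of GMUCT to RNA-seq for each tested gene of 6 lists, 1 point a gene, coloured by call, with a bar at each list's median, a dashed line at the median of all tested genes and a grey band from their 5th to their 95th percentile. The medians are -1.84 for the 10 pollen genes, -1.02 for other pectin enzymes of pollen and 0.85 for other arabinogalactan proteins.

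The median profile of the 10 genes was nearly matched by genes of other functions. The 5 nearest by Euclidean distance over the 3 libraries, on the log2(RPKM + 0.5) scale, lay within 0.17 of it. They were CLP2 (52.9, 49.0 and 17.1 RPKM in RNA-seq 1, RNA-seq 2 and GMUCT), AT4G34290, DHAR3, VAB3 and PMM, all called lower in GMUCT with log2 ratios from -1.71 for VAB3 to -1.54 for AT4G34290. The profile has 3 values only, 2 of them from the same assay, so the likeness is one of level and ratio.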

How the data were processed

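The authors deposited 1 table of RPKM by locus identifier for each library, with no header. Cutadapt 1.4.2, STAR 2.4.0 and the build TAIR10 are named, per the submitters' processing notes. The sources used here do not give the counter, the annotation, the read totals or how reads with several matches were counted.

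A gene missing from a table was taken as 0 RPKM. Values were compared as log2(RPKM + 0.5), which understates the ratios of low genes, for genes averaging at least 1 RPKM over both assays (each assay weighted equally), a filter all 10 genes passed. The test was limma 3.58.1 (lmFit, eBayes with trend; R 4.3.3) over 20214 genes, and the procedure was tested on simulated data. The simulated libraries were all given the spread of the RNA-seq libraries, so they could not check that GMUCT varies as RNA-seq does. Lengths, coding sequences and names came from the RefSeq annotation of TAIR10.1, whose coordinates are not printed because its name differs from the authors' build. Copies were searched with BLAST 2.17.0 (at least 50 nt). Named genes of each list were the 2 highest and 2 lowest ratios, and of the whole table the 5 profiles nearest to the median of the 10 genes. Of the pollen tube growth genes, 1 named by this rule is not reported here. Marker genes are given by level. The members and lists were chosen with earlier results of these data known. Alternatives covered the pseudocount, the filter, centring, length and GC trends, limma without trend, the fold, sums with near-identical genes and leaving out each RNA-seq library. Python 3.11.15, numpy 2.4.6, pandas 2.3.3 and biopython 1.88 were used.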

Additional observations from a re-analysis of the deposited data

How the results depend on the processing

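The log2 ratios of VGD1, PPME1, AGP23, AGP40, RALF4, RALF19 and ANX1 kept their direction under every alternative run for them, and their call under every alternative with a test. The count of 8 genes called lower was 7 without the filter and with the length trend removed, and 6 of the 8 genes left with a filter at 5 RPKM, which drops ANX1 and ANX2. RALF4 and RALF19, at 3.70 and 4.70 RPKM in GMUCT, passed the filter at 5 RPKM only through RNA-seq, which set their direction there. Genes called higher were 1 with a filter at 5 RPKM (AGP11) and 2 with centred libraries (AGP6 and AGP11). With the length trend removed AGP6 turned to -0.023 and AGP11 to -0.36. Genes at least 4-fold lower than both RNA-seq libraries were 4, where the 2-fold rule gave 7. The 2-fold count was 6 with a filter at 5 RPKM and 6 with the length trend removed, and leaving out either RNA-seq library left it at 7. The median log2 ratio of the 10 genes was -1.86 and -1.83 with pseudocounts of 0.1 and 1 RPKM, -2.13 with a filter at 5 RPKM, -1.72 with centred libraries, -2.27 with the length trend removed and -2.14 with the GC trend removed. It was between -1.85 and -1.84 without 1 RNA-seq library. Among other RALF and ANX pathway genes 2 were called lower with a filter at 5 RPKM or with the length trend removed. Among other arabinogalactan protein genes 5 were lower and 7 higher with the length trend removed, and among pollen tube growth genes 1 was higher with a filter at 5 RPKM. PMEI1, not called, turned to -0.58 and -0.63 with the length and GC trends removed. The causes were not tested. Over all genes the calls were within 1.5 times of 7468 lower and 6489 higher. Without 1 RNA-seq library no residual degree of freedom was left, so values and the 2-fold rule were computed there and no calls. No paired analysis was possible because the groups share 1 replicate number. GMUCT rests on 1 library, and depth is known only approximately.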
